A study of Mus musculus with 4 samples.

Results

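The genes described here encode potassium channel subunits and their dedicated partner proteins, as read in mouse hippocampal CA1 at 4 times after foot shock. They were taken as every probe set of the array whose single gene symbol begins with Kcn, which gave 51 probe sets for 42 genes, of 10833 probe sets and 8251 genes with a single symbol. The rule used gene names and no measured value. Young male C57BL/6J mice were put in a new context 2 h ahead of training, spent 2 min in the training chamber before each of 3 shocks of 0.5 mA lasting 1 s, and gave total RNA of CA1 at 1, 2, 4 or 6 h after the last shock. The labels call this shock alone. Each time has 1 Affymetrix MG-U74Av2 array. By their labels the 4 groups differ in time only, and all of them had received the same shocks. A difference between times cannot be told apart from one between the animals, dissections or RNA samples behind single arrays. Animals that were not shocked were not analysed here, and the labels do not give the number of mice behind an array. With 1 array per time no p-value is given, and differences are read against the scatter between arrays.

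Potassium channels let potassium ions leave the cell, which brings the membrane back to rest after a spike and sets how readily a neuron fires. Voltage-gated Kv channels assemble from several pore-forming subunits, to which cytoplasmic beta subunits attach. Calcium-activated BK and SK channels produce the afterhyperpolarisation, inward rectifiers stabilise the resting potential and include the channels opened by G proteins, and tandem-pore (K2P) channels carry the background leak. In CA1 pyramidal neurons the A-type current of Kv4 channels limits the spread of spikes into the dendrites, and Kv1 channels act in axons and their terminals.

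A probe set reads 1 transcript through several short oligonucleotides. Its brightness depends on the oligonucleotides as well as on the RNA, so each probe set was compared with itself over time and not with others. Values are linear intensities scaled to a common mean. A floor was set at 100.8, the 40th percentile of all values, and a value below it was treated as not distinguishable from background. In these bulk samples, fewer cells of a type and less RNA per cell cannot be told apart. Between pairs of arrays the log2 differences of all probe sets above the floor had a robust SD of 0.26 to 0.31, so 1 SD corresponds to 1.19-fold for 6 h over 4 h, and 1.24-fold for 6 h over 2 h. The 3' to 5' ratio of the actin control probe sets, a sign of RNA integrity, was 1.84, 2.70, 1.79 and 1.74 at 1, 2, 4 and 6 h, and that of the GAPDH controls was 3.98, 4.82, 3.85 and 3.24. The choroid plexus transcript Ttr read 4482 at 6 h, against 111, 89.9 and 198 at 1, 2 and 4 h. Of the CA1 pyramidal markers, 5 of 6 on the array were measured, and Camk2a, the sixth, reached 110 on the 1 h array and lay under the floor on the other 3.

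Of the 51 potassium channel probe sets, 20 (39.2%) were above the floor on all 4 arrays, where 51.9% of all probe sets other than controls were. These 20 belong to 17 genes. Another 12 probe sets (23.5%) were above it on 1 to 3 arrays, compared with 17.3% of all probe sets, and 19 were above it on none. With genes represented by their brightest probe set, 24 genes had a mean above the floor, and these 24 are called measured. By family they were 2 of 7 Kv1 genes, all 3 beta subunits, the Kv3 gene Kcnc1, 2 of 3 Kv4 genes, both silent subunits, both EAG and ERG genes, Kcnq1, 1 of 2 Kcne genes, 1 of 3 genes of the BK family, both genes of the SK and IK channels, 3 of 11 inward rectifiers and 4 of 5 K2P genes.

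**Figure D1:**
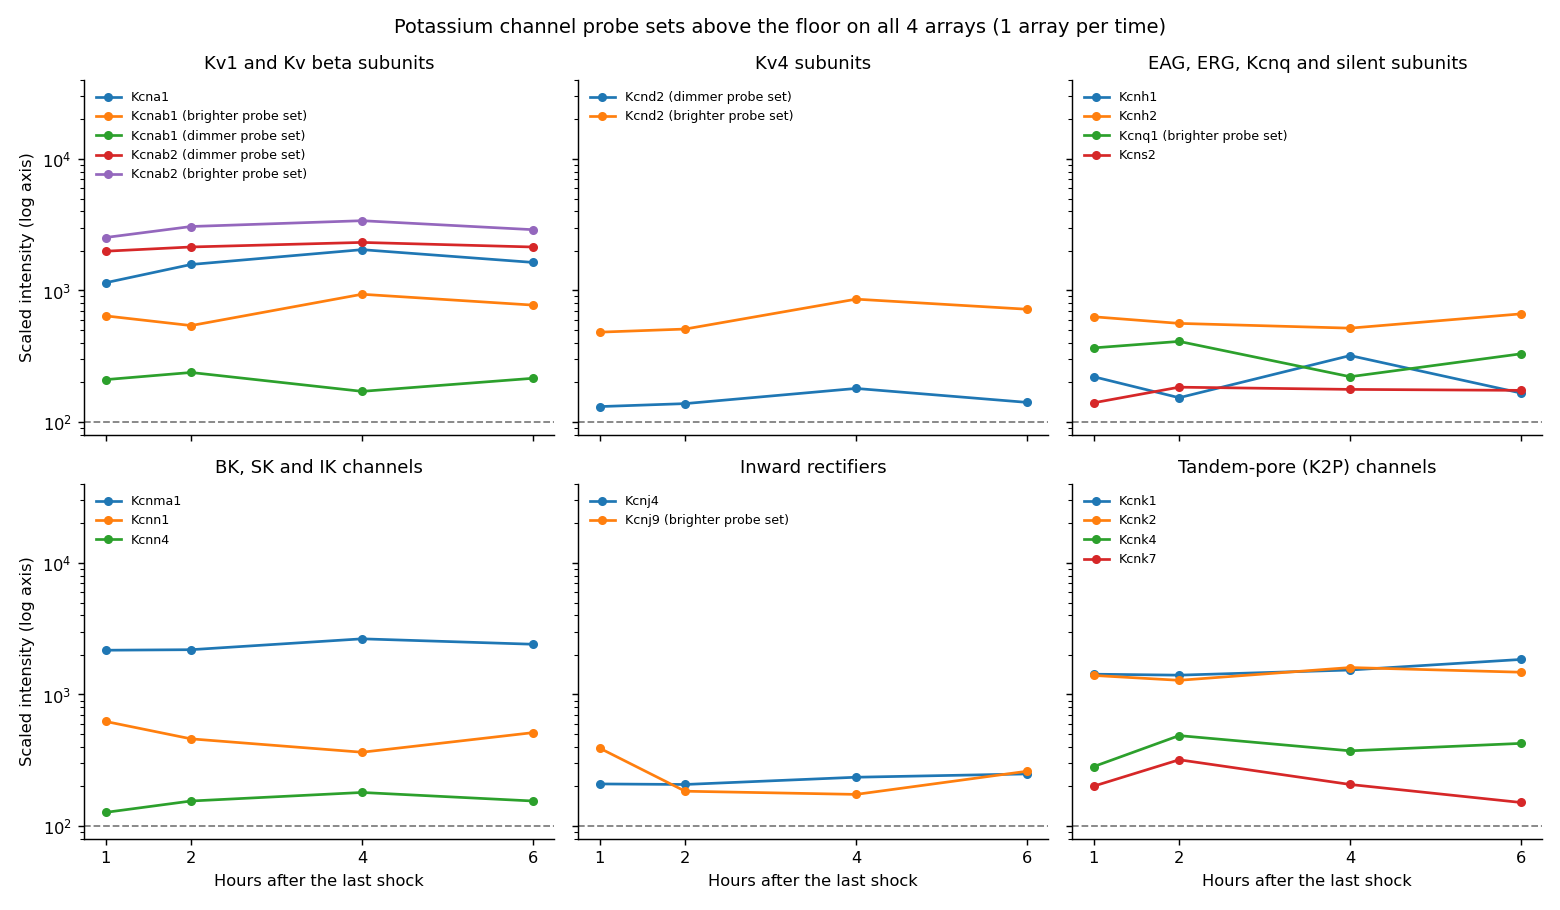
Scaled intensity (log axis) against hours after the last shock for the 20 potassium channel probe sets above the floor on all 4 arrays, in 6 panels by family, with 1 point per array and the floor of 100.8 as a dashed line. Kcna1, the brighter probe sets of Kcnab1 and Kcnd2, and Kcnma1 peak at 4 h, where Kcnn1 and the brighter probe sets of Kcnj9 and Kcnq1 are lowest.

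The 2 measured Kv1 genes differed in opposite directions at 4 h. Kcna3 read 171, 223, 36.6 and 155 at 1, 2, 4 and 6 h, below the floor at 4 h. Kcna1, the shaker-related subunit of axons and presynaptic terminals, was above the floor on all 4 arrays. Its probe set had intensities of 1145, 1576, 2043 and 1634 at 1, 2, 4 and 6 h. For Kcna1 the 1 h array was the lowest and the 4 h array the highest, 1.78-fold above 1 h and 1.25-fold above 6 h. Relative to the mean of the other 3 arrays, the log2 difference of Kcna1 was 0.51 at 4 h and -0.60 at 1 h. Without the 1 h array the difference at 4 h was 0.35.

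Of the 3 beta subunit genes, Kcnab1 and Kcnab2 were highest at 4 h with their brighter probe sets. Kcnab1 encodes the beta subunit that gives Kv1 channels rapid inactivation, and its brighter probe set read 641, 541, 936 and 774 at 1, 2, 4 and 6 h. The 4 h value was 1.73-fold above the 2 h value and 1.46-fold above the 1 h value. The dimmer probe set of the gene had the opposite order, at 210, 238, 171 and 215, lowest at 4 h and highest at 2 h. In the array's naming the letter f marks a probe set whose oligonucleotides may match several members of a sequence family, and r one chosen with relaxed rules. Of the 20 probe sets above the floor on all 4 arrays, 5 carry such a letter: f for the dimmer one of Kcnab1 and the brighter one of Kcnab2, and r for the brighter ones of Kcnd2, Kcnj9 and Kcnq1. For Kcnab1 the direction of the difference at 4 h thus depends on the probe set. Kcnab2, whose product helps carry Kv1 channels to the axon, read 2527, 3064, 3392 and 2898 with its brighter probe set, and 1988, 2141, 2319 and 2140 with its dimmer one. Both probe sets were highest at 4 h and lowest at 1 h, with spans of 1.34-fold and 1.17-fold. The smaller span is less than 1 SD between arrays over all probe sets above the floor. Kcnab3, the third beta subunit, read 186, 141, 142 and 90.4, and the 6 h value lay below the floor, so 6 h was at least 1.85-fold below 1 h.

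Kcnd2 encodes the main pore subunit of the A-type current in CA1 dendrites. Its brighter probe set read 482 and 509 at 1 and 2 h, and 859 and 720 at 4 and 6 h. The values at 4 and 6 h thus lay above both earlier ones, by 1.78-fold for 4 h over 1 h. The dimmer probe set read 131, 138, 180 and 141, with the same highest and lowest times and a span of 1.37-fold. The log2 difference at 4 h from the other 3 arrays was 0.61 and 0.40 for the pair of Kcnd2 probe sets. Kcnd3, the Kv4 subunit found mainly in interneurons and dentate granule cells of the hippocampus, differed in the other direction. It read 195 and 196 at 1 and 2 h and fell below the floor at 4 and 6 h, at 53.0 and 83.8, so both late values were at least 1.94-fold below both early ones. No second probe set reads Kcnd3, and its values are near the floor.

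The EAG and ERG channel genes differed from each other at 4 h. Kcnh1, the ether-a-go-go channel, read 221, 153, 320 and 166, 2.10-fold higher at 4 h than at 2 h. Its log2 difference at 4 h from the other 3 arrays was 0.85. Kcnh2, the ERG channel that dampens repetitive firing, read 631, 562, 517 and 664, lowest at 4 h, with a span of 1.29-fold. Kcnq1, known as the slow delayed rectifier subunit of heart and epithelia, had a brighter probe set at 366, 410, 221 and 330, lowest at 4 h by 1.86-fold against 2 h. Its dimmer probe set never reached the floor and carries no order. Of the silent subunits, which form no channel alone and modify other Kv channels, Kcns2 read 140, 184, 177 and 174, lowest at 1 h. Kcns1 read 132, 131, 40.9 and 131, below the floor at 4 h alone.

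Among calcium-activated channels, Kcnma1 and Kcnn1 lay on opposite sides at 4 h. Kcnma1, the pore subunit of the BK channel that shortens spikes, read 2171, 2191, 2650 and 2410, highest at 4 h by 1.22-fold over 1 h. This is about 1 SD between arrays over all probe sets above the floor. Kcnn1, an SK channel of the afterhyperpolarisation, read 624, 460, 364 and 513, lowest at 4 h and 1.71-fold below 1 h. Kcnn4, the intermediate-conductance channel known from blood cells, microglia and endothelium, read 127, 155, 180 and 155. It was highest at 4 h and lowest at 1 h, with a span of 1.43-fold. Kcnu1, a relative of Kcnma1 known from sperm, and Kcnmb1, the BK beta subunit of smooth muscle, lay under the floor throughout.

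The K2P leak channels had no common course. Kcnk1 read 1427, 1403, 1535 and 1847, highest at 6 h by 1.32-fold over 2 h. Kcnk2, the mechanosensitive channel TREK, read 1396, 1282, 1603 and 1477, highest at 4 h by 1.25-fold over 2 h. Both were lowest on the 2 h array, the one with the actin ratio of 2.70 and the GAPDH ratio of 4.82, and the part of RNA integrity in this was not tested. Kcnk4, a relative of Kcnk2 known as TRAAK, was instead lowest at 1 h and highest at 2 h, at 283, 487, 373 and 425. Kcnk7 read 319 at 2 h against 201, 207 and 151 at 1, 4 and 6 h. Of the 20 above the floor on all 4 arrays, it was the single potassium channel probe set that stood at least 1.5-fold above, or below, each other array at 1 time. That is 5%, and 6.3% of all probe sets above the floor on all 4 arrays did so in either direction. Over the 4 measured K2P genes the median log2 difference at 4 h was -0.03.

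Of the 11 inward rectifier genes, 3 were measured. Kcnj4, a strong rectifier of forebrain neurons, read 209, 207, 235 and 249, with a span of 1.20-fold. Kcnj9, a subunit of the channels that G proteins open, read 391, 184, 174 and 261 with its brighter probe set, 2.25-fold lower at 4 h than at 1 h, its highest. The dimmer probe set was above the floor at 4 h alone, at 172 against 73.3, 56.8 and 36.0 at 1, 2 and 6 h. The pair thus had opposite extremes at 4 h. Kcnj6, another subunit opened by G proteins, also had a discordant pair, since 1 probe set was above the floor at 2 h alone, with 157, and the other at 4 h alone, with 154. Kcnj3, the third of these subunits, reached 105 at 4 h and 79.3 to 84.7 at the other times. Kcnj11, the pore of the neuronal ATP-sensitive channel, was above the floor at 6 h alone, at 189, and read 61.6, 89.5 and 69.4 at 1, 2 and 4 h. Kcnj8, the pore of the vascular ATP-sensitive channel and a pericyte gene, read 104, 108, 98.5 and 61.4. The summed intensity of the 8 measured endothelial and pericyte markers was 1749, 1363, 1414 and 1272 at the same times, highest at 1 h. Kcnj8 was below the floor at 4 and 6 h, and the part of these cells in its values was not tested.

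**Figure D2:**
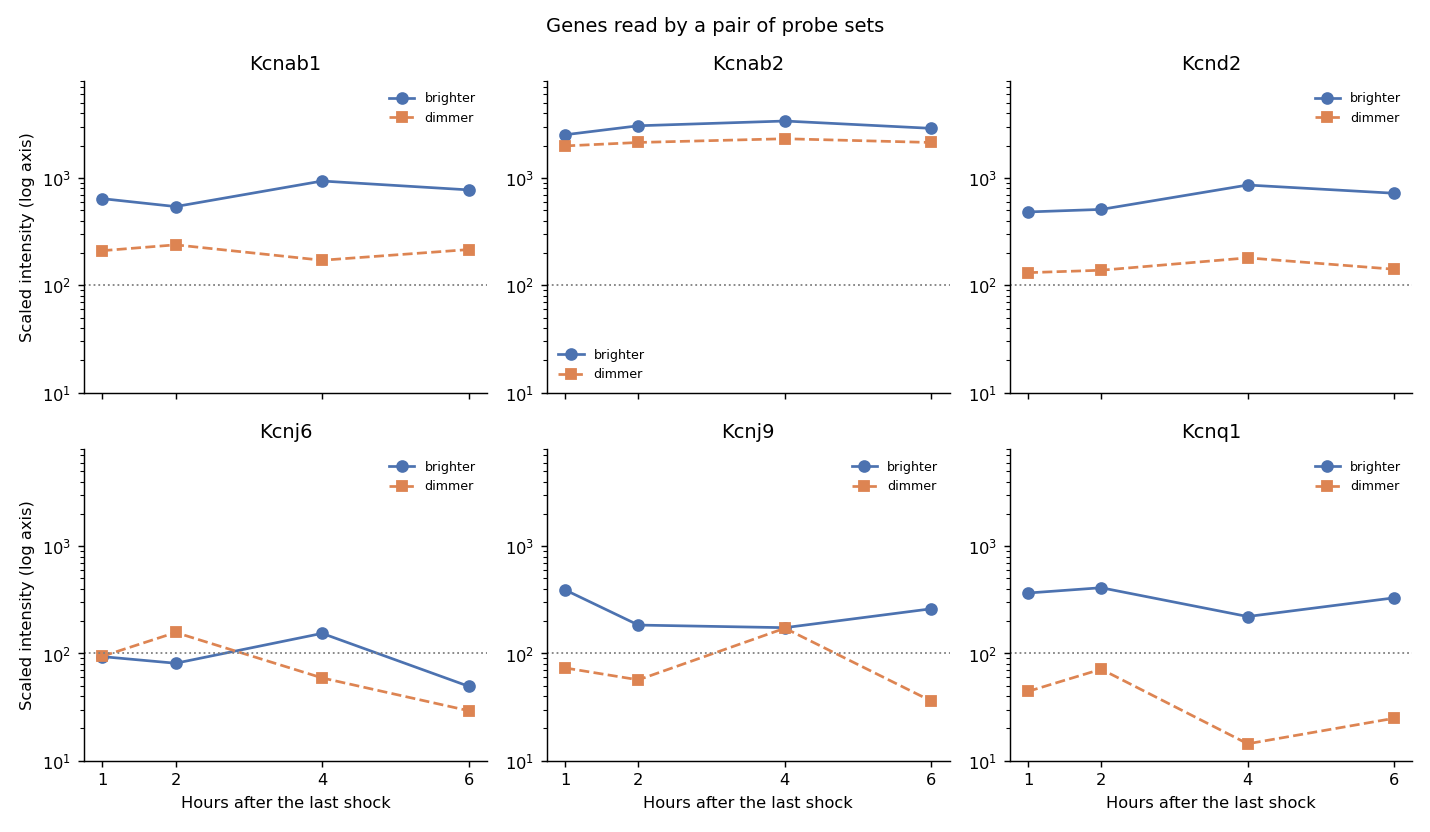
Scaled intensity (log axis) against hours after the last shock for 6 genes read by a pair of probe sets, the brighter as circles and the dimmer as squares, with the floor of 100.8 as a dotted line. Kcnab2 and Kcnd2 have the same highest and lowest times in both probe sets and Kcnab1 does not, while the dimmer probe set of Kcnq1 and parts of those of Kcnj6 and Kcnj9 lie below the floor.

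In all, 9 genes had a pair of probe sets. In 3 of them both probe sets were above the floor on all 4 arrays, and in 2 of these 3 (Kcnab2 and Kcnd2, but not Kcnab1) both had the same highest time and the same lowest time. The pairs of Kcna5, Kcnj1 and Kcnj15 never reached the floor and carry no order.

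Across families, the potassium channels above the floor were most often highest at 4 h and lowest at 1 h. Of the 20 probe sets, 10 were highest at 4 h (50%), where 23.1% of all probe sets above the floor on all 4 arrays were. Of the others, 2 peaked at 1 h, 5 at 2 h and 3 at 6 h, or 10%, 25% and 15%, beside 24.8%, 28.7% and 23.5% of all probe sets. The lowest value fell on the 1 h array in 9 cases, the 2 h array in 5, the 4 h array in 5 and the 6 h array in 1. These are 45%, 25%, 25% and 5%, beside 22.8%, 26.7%, 24.3% and 26.2% of all probe sets. Counted by gene, with the brightest probe set for each, 8 of 17 (47.1%) were highest at 4 h, beside 23.1% of all 5018 such genes, and 7 of 17 (41.2%) were lowest at 1 h, beside 23.4%. The 8 genes are Kcna1, Kcnab1, Kcnab2, Kcnd2, Kcnh1, Kcnk2, Kcnma1 and Kcnn4. Scaling to a common median gave 11 of 20 highest at 4 h beside 28.1% of all probe sets, and quantile normalization 11 of 20 beside 24.3%. This is a description of 4 arrays, and no test of it was made.

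**Figure D3:**
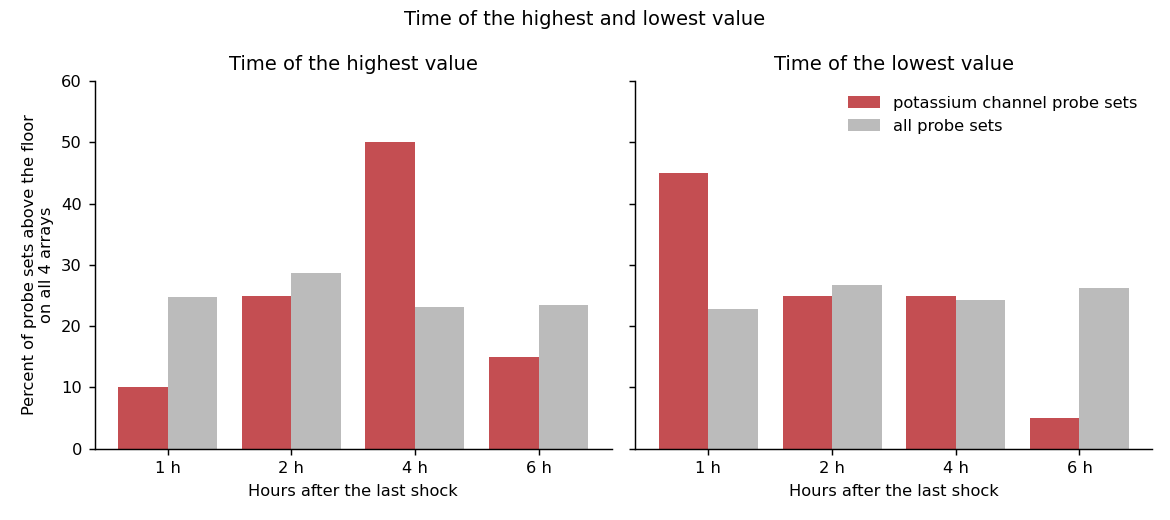
Percent of probe sets above the floor on all 4 arrays whose highest (left) or lowest (right) value fell at 1, 2, 4 or 6 h, for the 20 potassium channel probe sets (red) and all 6442 (grey). At 4 h the highest value is found in 50% of the potassium channel probe sets, against 23.1% of all probe sets.

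The margins at 4 h were small in most of these. The 10 probe sets highest at 4 h spanned 1.17-fold to 2.10-fold between their highest and lowest arrays, and 4 of them spanned at least 1.5-fold. In 4 of the 10 (Kcna1, Kcnh1, the brighter one of Kcnab1 and the dimmer one of Kcnd2) the 4 h value exceeded the next highest by more than 0.26. This is the robust SD between the 4 h and 6 h arrays over all probe sets above the floor. The 6 h array was the next highest in 6 of the 10, and the SD of 4 h against 1 h and 2 h was 0.28 and 0.30. Among all probe sets highest at 4 h, the shares with such a span or margin were not counted. For probe sets with a mean of at least 500 the SD between 4 h and 6 h was 0.20, and the brighter one of Kcnd2 exceeded its next highest by 0.25. Among brighter probe sets, those with a mean of at least 500, 7 of 9 of the potassium channels (77.8%) were highest at 4 h. Both probe sets of Kcnab2 are among the 7, and 26% of all such probe sets were highest at 4 h. This limit was chosen after the data were seen.

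**Figure D4:**
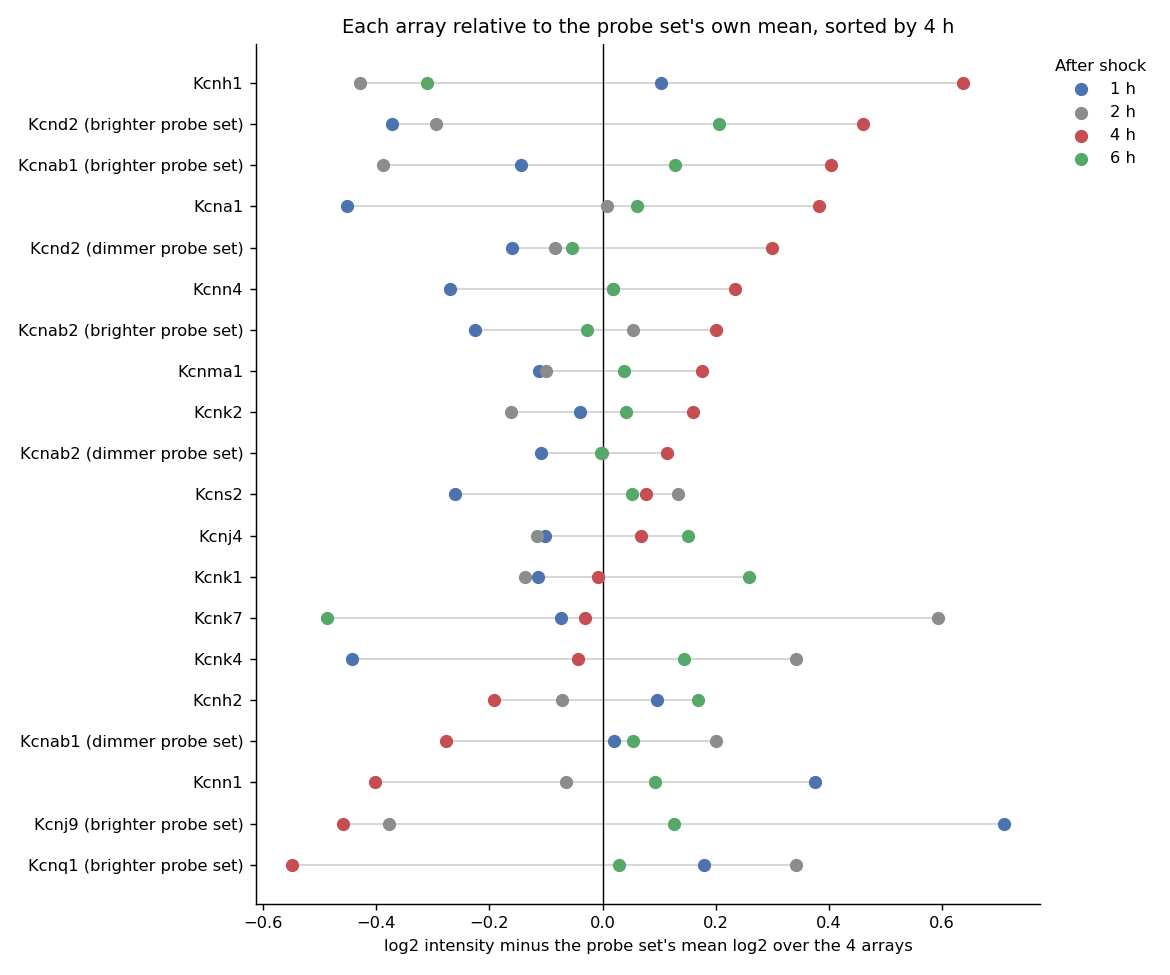
log2 intensity of each array minus the probe set's own mean over the 4 arrays, for the 20 potassium channel probe sets above the floor on all 4, sorted by the 4 h value (red points). From the top down to the dimmer probe set of Kcnab2, 10 probe sets have their highest value at 4 h; the 5 with their lowest value at 4 h are at the bottom.

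At 4 h some neuronal markers differed as well. The CA1 pyramidal markers Wfs1, at 1709, 1637, 2608 and 2205, and Neurod6, at 768, 648, 1263 and 1089, ranked the 4 arrays as the brighter probe set of Kcnab1 did. Of the 5 measured CA1 markers, 2 were highest at 4 h and 2 were lowest there, and their summed intensity was 9789, 7283, 7966 and 8055 at 1, 2, 4 and 6 h. Of this sum, Dcn made up 5844, 3395, 2523 and 2915. Both measured neocortical markers were lowest at 4 h, with a sum of 3136, 2985, 2074 and 2558. The 3 measured CA3 and dentate markers summed to 3262, 2850, 3077 and 2557. Of these, 1 was highest at 4 h (Dsp, at 167, 129, 223 and 162). Another 1 was lowest there (Bok, at 682, 705, 577 and 687). Tdo2 and Npnt, not measured by their means, were above the floor at 4 h alone, at 133 and 112. Prox1, a defining gene of granule cells, and Trpc6 lay below the floor throughout. Interneuron markers, 10 measured, summed to 42946, 42913, 43032 and 42320, of which Cck alone made up 17648, 17527, 17194 and 15467. Of the 10, 2 spanned at least 1.5-fold: Lhx6, at 576, 319, 334 and 392, and Reln, at 740, 638, 1108 and 797. Astrocyte (8 measured) and oligodendrocyte markers (7 measured) summed to 21516 and 24076 at 4 h, against 22009 to 23964 and 22172 to 23416 at the other times. The 5 measured thalamic markers summed to 1655, 2219, 1846 and 1590, and 4 of them spanned at least 1.5-fold. Of the 5, 3 were highest at 2 h, while 2 were lowest at 1 h and 3 at 6 h. Tcf7l2, with the widest span among them, read 121, 494, 471 and 359. The part of tissue composition in the potassium channel values was not tested.

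The largest differences over time were about 2-fold. Of the 20 probe sets, 9 (45%) spanned at least 1.5-fold over the 4 arrays, beside 27.9% of all probe sets above the floor on all 4. They are those of Kcna1, Kcnh1, Kcnk4, Kcnk7 and Kcnn1 and the brighter ones of Kcnab1, Kcnd2, Kcnj9 and Kcnq1. Dim probe sets scatter more, and with a mean of at least 500 the counts were 3 of 9 (33.3%) beside 12.4% of all. Counted over the potassium channel probe sets above the floor on the arrays kept, 3 spanned 1.5-fold without the 4 h array. The count was 6, 7 and 9 without the 1, 2 and 6 h arrays. With an array left out, the share of all probe sets was not counted. No course was one-way, since 0 of 20 were higher and 0 of 20 lower at each later time with a span of 1.3-fold, beside 1.8% and 2.93% of all probe sets.

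Between pairs of times, at most 3 of the 20 probe sets were higher, or lower, by at least 1.5-fold. At 4 h over 1 h, 2 (10%) were higher, Kcna1 and the brighter one of Kcnd2, beside 3.29% of all probe sets. Lower were 3 (15%), Kcnn1 and the brighter ones of Kcnj9 and Kcnq1, beside 4.92% of all. At 4 h over 2 h, 3 (15%) were higher, Kcnh1 and the brighter ones of Kcnab1 and Kcnd2, beside 4.39% of all. Lower were 2 (10%), Kcnk7 and the brighter one of Kcnq1, beside 6.33% of all. At 2 h over 1 h, Kcnk4 and Kcnk7 (10%) were higher and the brighter one of Kcnj9 (5%) lower, where 5.14% and 4.75% of all probe sets were. At 6 h over 4 h, the brighter one of Kcnj9 (5%) was higher and Kcnh1 (5%) lower, where 3.68% and 3.87% of all were. At 6 h over 1 h, Kcnk4 (5%) was higher and 0 were lower, where 3.6% and 5.57% of all were. At 6 h over 2 h, 0 were higher and Kcnk7 (5%) was lower, where 4.47% and 6.64% of all were. These pairs share arrays and are not independent of each other.

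The median of the group lay near 0 at each time. Over the 24 measured genes the median log2 difference at 4 h against the other 3 times was 0.02, with 12 genes above and 12 below, while all 5671 measured genes had a median of 0.00. The quartiles were -0.42 and 0.24 for the potassium channel genes, and -0.17 and 0.15 for all genes. At 1, 2 and 6 h the medians were -0.08, -0.04 and 0.06, where those of all genes were 0.01, 0.02 and -0.01. At 6 h, 16 of 24 genes were above the mean of the other times, and the share of all genes was not counted. As a mean over the potassium channel genes, the difference at 6 h was -0.01. The genes on the low side at 4 h include Kcna3, Kcnc1, Kcnd3, Kcns1 and Kcnj11, dim genes that crossed the floor. Kcnab3 and Kcne1l crossed it too and lay on the high side at 4 h, by 0.04 and 0.13.

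The 12 probe sets that crossed the floor were left out of the counts of highest and lowest times given above. Below the floor at 4 h were those of Kcna3, Kcnc1, Kcnd3, Kcns1, Kcnj8 and Kcnj11, and the dimmer one of Kcnj6. Others were above it at 4 h alone: that of Kcnj3, the brighter one of Kcnj6 and the dimmer one of Kcnj9. Those of Kcnab3 and Kcne1l were above it at 4 h and at other times. The share of all probe sets above the floor at 4 h alone was not counted. Kcna3, a Kv1 subunit also known from microglia and lymphocytes, read 171, 223, 36.6 and 155, so the 4 h value was at least 1.54-fold below each other. With Kcns1 it made 2 of 51 (3.92%) that were below the floor at 4 h alone, beside 1.33% of all probe sets. Kcnc1, the Kv3 channel of fast-spiking interneurons, read 215, 165, 33.2 and 27.6, so both late values were at least 1.63-fold below both early ones. With Kcnd3 and Kcnj8 it made 3 of 51 (5.88%) that were above the floor at 1 and 2 h and below it at 4 and 6 h, beside 1.18% of all probe sets. Kcnj8 crossed narrowly, at 104 and 108 at 1 and 2 h against 98.5 at 4 h. The interneuron marker Pvalb, which the same fast-spiking cells express, read 3161, 2592, 3026 and 3437 with another order than Kcnc1. Other interneuron markers differed among themselves. Lhx6, with 576, 319, 334 and 392, shared its highest time with Kcnc1, and Reln, with 740, 638, 1108 and 797, did not. The part of interneurons in the Kcnc1 values was not tested. Kcne1l, a small accessory subunit, read 147, 99.3, 126 and 104, all close to the floor.

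**Figure D5:**
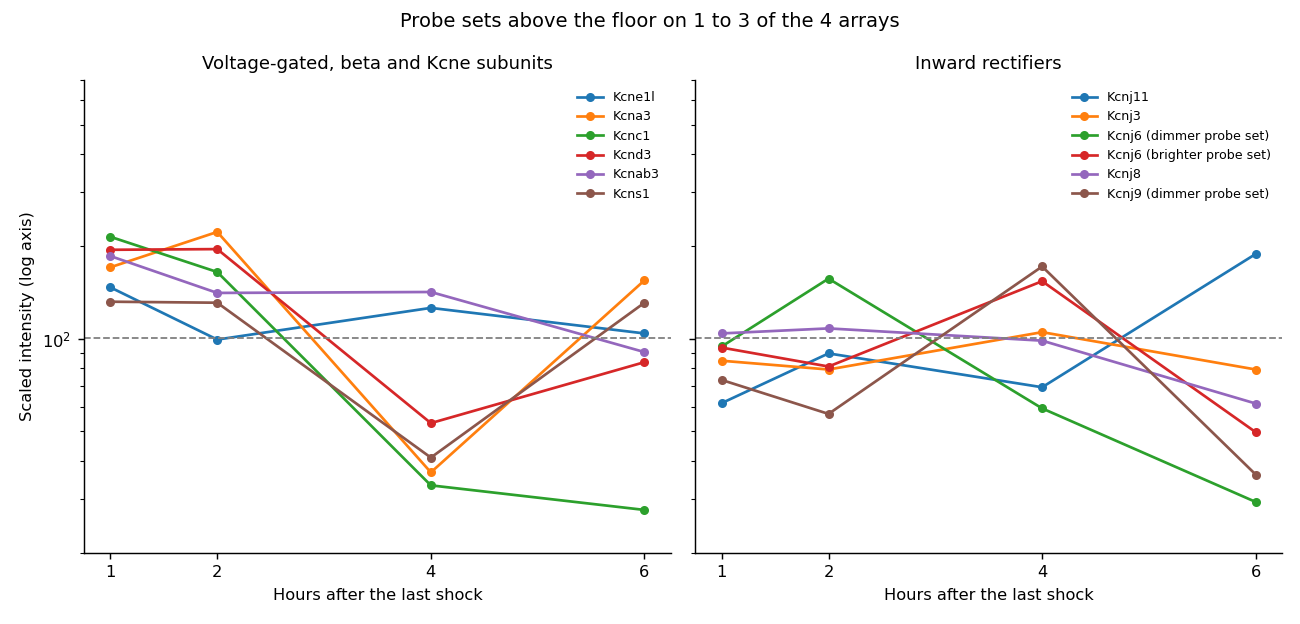
Scaled intensity (log axis) against hours after the last shock for the 12 potassium channel probe sets above the floor of 100.8 (dashed line) on 1 to 3 of the 4 arrays. Kcna3, Kcnc1, Kcnd3 and Kcns1 lie above the floor at 1 and 2 h and below it at 4 h.

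The remaining genes lay under the floor throughout, with values from 3.0 to 99.5. They are the Kv1 genes Kcna2, Kcna4, Kcna5, Kcna6 and Kcna7, the Kv4 gene Kcnd1, the inward rectifiers Kcnj1, Kcnj2, Kcnj5, Kcnj12 and Kcnj15, and Kcne1, Kcnk3, Kcnmb1 and Kcnu1, 15 in all. The highest of these values, 99.5, was that of Kcna2 at 4 h. Kcna2 and Kcna4 are known as abundant Kv1 subunits of the hippocampus, and a value below the floor does not show that a transcript was absent.

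The promoters of the brighter genes were read because several of these genes shared their highest time. RefSeq windows on GRCm38.p6 run from 250 bases before to 50 after a transcript start and were found for 33 of the 42 genes and 19 of the 24 measured ones, in 27 windows for the latter. The windows below are those of the genes with a probe set of mean intensity of at least 500 and 1 window each. Kcnd2 (chr6:21215096-21215395, plus strand) and Kcnma1 (chr14:24004156-24004455, minus strand) were highest at 4 h, and Kcnh2 (chr5:24329542-24329841, minus strand) and Kcnk1 (chr8:125994852-125995151, plus strand) were highest at 6 h. Capitals mark the GC box, GGGCGG on either strand, which was the only searched motif found in them.
Kcnd2: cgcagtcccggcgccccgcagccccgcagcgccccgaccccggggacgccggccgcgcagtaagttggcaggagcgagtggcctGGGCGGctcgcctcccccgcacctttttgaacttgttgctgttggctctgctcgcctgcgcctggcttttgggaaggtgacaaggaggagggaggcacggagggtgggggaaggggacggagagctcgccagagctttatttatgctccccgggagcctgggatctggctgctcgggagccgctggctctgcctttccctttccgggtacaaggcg
Kcnma1: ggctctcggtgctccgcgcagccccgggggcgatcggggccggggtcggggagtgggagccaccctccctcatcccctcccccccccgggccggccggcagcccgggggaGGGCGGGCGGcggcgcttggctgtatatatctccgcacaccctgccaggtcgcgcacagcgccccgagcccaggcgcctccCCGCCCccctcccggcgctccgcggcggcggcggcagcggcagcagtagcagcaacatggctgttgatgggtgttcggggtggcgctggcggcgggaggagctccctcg
Kcnh2: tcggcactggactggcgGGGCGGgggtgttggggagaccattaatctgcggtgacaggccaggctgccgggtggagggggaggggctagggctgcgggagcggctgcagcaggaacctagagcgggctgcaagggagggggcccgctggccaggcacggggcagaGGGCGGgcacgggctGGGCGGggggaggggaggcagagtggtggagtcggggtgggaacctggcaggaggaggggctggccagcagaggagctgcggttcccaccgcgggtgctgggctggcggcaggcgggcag
Kcnk1: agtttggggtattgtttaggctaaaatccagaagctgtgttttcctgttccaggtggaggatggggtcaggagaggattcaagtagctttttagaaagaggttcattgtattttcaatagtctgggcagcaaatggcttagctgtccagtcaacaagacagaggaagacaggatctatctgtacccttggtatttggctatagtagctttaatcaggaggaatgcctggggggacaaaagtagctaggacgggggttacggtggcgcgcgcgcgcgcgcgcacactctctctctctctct

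The window of Kcnd2 holds 1 GC box, those of Kcnma1 and Kcnh2 hold 3 each (2 of those of Kcnma1 overlap), and that of Kcnk1 holds 0. Over the 27 windows of measured genes, 16 hold a GC box, where 35.7% of all 32851 windows do. Their median GC content was 62.7%, against 52.7% for all windows. The cyclic AMP response element TGACGTCA, searched on both strands, was in 0 of the 27, and 1.79% of all windows hold it. Its short form TGACG was in 4 (Kcnab2, Kcnc1, Kcnj4 and Kcnn1), compared with 20.8% of all windows. The AP-1 motif TGANTCA and the Egr motif GCGNGGGCG were each in 1, both of Kcnk2, where 7.81% and 5.55% of all windows hold them. The E-box CACGTG was in 3 (of Kcnab1 and Kcnn4; 7.15% of all), TATAAA in 2 (of Kcnab1 and Kcnj9; 13.6% of all), and the RE1 element in 0 (0.0244% of all). A full response element contains the short form, so these counts overlap. These matches are a description of the letters in the windows.

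Genes of proteins that bind, carry or gate potassium channels, together with the related HCN channels, were taken as a list of 49. Of these 32 were on the array and 28 measured. Of 26 above the floor on all 4 arrays, 4 were highest at 4 h (15.4%, beside 23.1% of all probe sets) and 4 spanned at least 1.5-fold (15.4%, beside 27.9%). The median log2 difference at 4 h was -0.03. The widest span was that of Cntnap1, a junction protein beside the node of Ranvier, at 46.9, 186, 193 and 281, at least 2.79-fold higher at 6 h than at 1 h. Csnk2a1, a catalytic subunit of the casein kinase that regulates SK channels, read 785, 596, 808 and 1023. Chrm1, a muscarinic receptor of pyramidal neurons, read 165, 173, 88.1 and 150, below the floor at 4 h. Dlg4, the scaffold that clusters Kv1 channels, read 669, 507, 851 and 610, with the same highest and lowest times as the brighter probe set of Kcnab1. Hcn2, a cation channel opened by hyperpolarisation, was lower at each later time, at 3158, 2581, 2289 and 1958. It was singled out after its values were seen.

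Other ion channel and receptor families were read in the same way. Of the 20 potassium channel probe sets 50% were highest at 4 h, beside 22.7% of 22 for calcium, sodium, chloride and HCN channels and 38.5% of 13 for AMPA, NMDA, kainate and GABA-A receptors. The shares spanning at least 1.5-fold were 45%, 22.7% and 38.5% for these families in the same order. The difference between the families was not tested.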

How the data were processed

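Total RNA of CA1 was read on 4 arrays, 1 per time. The authors deposited linear intensity values of 12488 probe sets per array, which share a trimmed mean of 500.3 on each. Their software is not stated in the labels. Intensities were scaled to a common trimmed mean (2% left out at each end) over the 12422 probe sets other than controls, set to the floor and converted to log2. Genes were named from the platform annotation, and all 42 were found by identifier in RefSeq with 0 changed symbols. The brightest probe set stood for a gene in medians. Every probe set of the family could be named, and the 4 partner genes with the widest spans. The genes and lists were chosen with earlier results of these data known. Counting steps were tested on arrays simulated with known differences. No significance test was run, since each time has 1 array. Alternatives were other scalings, floors and fold limits, plain probe sets, means, and arrays left out. The tools were pandas 2.3.3 and NumPy 2.4.6 under Python 3.11.15, with figures by matplotlib 3.10.9.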

Additional observations from a re-analysis of the deposited data

How the results depend on the processing

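Of 154 recomputed values of the group, 122 stayed within 1.5 times a count or 0.1 of a median, and 32 moved. The number of potassium channel probe sets highest at 4 h ranged from 7 to 14 over its alternatives, which differ in how many are counted. It was 14 of 32 at the floor of the 20th percentile and 7 of 11 at that of the 60th. Over those with a mean intensity of at least 500 it was 7 of 9, beside 26% of all such probe sets. The share of all probe sets was not counted at the other floors. These alternatives were chosen after the data were seen.

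Most that moved depended on the floor. With it at the 20th percentile, 41 probe sets were measured, 32 were above it on all 4 arrays, 19 spanned 1.5-fold and 12 stood apart at 1 time. No share of all probe sets was counted at this floor or at the 60th percentile. The median was then 0.13 at 1 h against the other times, -0.15 for 6 h over 1 h and -0.14 for 6 h over 4 h. With the floor at the 60th percentile, 12 were measured, 11 were above it on all 4 arrays, 5 spanned 1.5-fold, 0 stood apart, and 1 gene had a pair of probe sets with the same extremes. The median was then 0.21 at 4 h, 0.29 for 4 h over 1 h, 0.20 for 6 h over 1 h, 0.15 for 4 h over 2 h, 0.16 for 6 h over 2 h and -0.12 for 6 h over 4 h. At 1 h, and for 6 h over 1 h, the median thus changed sign with the lower floor, which adds dim genes, and the cause was not tested.

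At a limit of 1.3-fold, 15 spanned it and 7 stood apart, and at 2-fold 3 and 0, with no share of all probe sets counted. Over probe sets with a mean of at least 500, a choice made after the data were seen, 3 spanned 1.5-fold. The number apart at 1 time was 2 after scaling to a common median and 0 after quantile normalization. It was 2, 1, 2 and 4 without the 1, 2, 4 and 6 h arrays. With an array left out, each value is compared with fewer others, and the floor applies to the arrays kept only. The share of all probe sets apart at 1 time was not counted in these settings. Without the 4 h array 3 spanned 1.5-fold, and the share of all probe sets was not counted there. As means over genes the differences were 0.04 at 1 h, -0.06 for 4 h over 1 h and -0.03 for 6 h over 1 h. Among single probe sets at 4 h, 104 of 120 recomputed differences moved by at most 0.1, and 7, of 4 probe sets, had the other sign. These were Kcns2, -0.01 without the 1 h array, and Kcnk1, Kcnk4 and Kcnk7, whose differences of -0.01, -0.06 and -0.04 were near 0 and became 0.12 without the 6 h array, 0.11 without the 2 h array and 0.25 without the 2 h array at most. Scaling to a common median shifted all probe sets by 0.12 for 6 h over 2 h, and quantile normalization by 0.14. No paired analysis was possible because each time has 1 array. Signal over background limits what can be read for the dim genes near the floor.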
